A study of Drosophila melanogaster with 12 samples.

Results

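Small RNA silencing in Drosophila is carried out by a pair of Dicer and Argonaute systems, and the 6 genes that encode its core were followed here through every library: Dcr-1, loqs and AGO1 of the microRNA branch, and Dcr-2, r2d2 and AGO2 of the small interfering RNA branch. They were listed by symbol and matched to FlyBase identifiers. All 6 were found among the 17023 gene identifiers counted, and all 6 were among the 9745 genes that passed the filter on low counts. Dcr-1, with the double-stranded RNA-binding protein encoded by loqs, cuts microRNA precursors into the duplexes that load AGO1, which represses target mRNAs. Dcr-2 cuts long double-stranded RNA and, with the double-stranded RNA-binding protein encoded by r2d2, hands the duplexes to AGO2, which slices perfectly matched targets. An isoform of loqs also serves Dcr-2. In the ovary, germline stem cells need Dcr-1, loqs and AGO1 for their maintenance and division, and extra Dcr-2 is often supplied as a transgene to make RNA interference from hairpins more efficient.

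Ovaries of flies 1 to 3 days after eclosion were compared in 3 genotypes, each with 2 replicate lysates. The aramis RNAi ovaries carried UAS-Dicer2, the germline driver nosGAL4 and a hairpin against aramis (listed as ais), a gene for an RNA helicase. The bam RNAi ovaries carried the same UAS-Dicer2 and nosGAL4 with a hairpin against bam, the differentiation factor of the female germline, and are enriched for germ cells that have not formed cysts. The UAS-tkv ovaries carried nosGAL4 with UAS-tkv, a receptor of the BMP signal that keeps germline stem cells undifferentiated, and no UAS-Dicer2 is named for them. All 3 genotypes thus drive a transgene in germ cells through nosGAL4, but UAS-Dicer2 is named for the hairpin lines only. A library of mRNA from polysome gradient fractions (polysome) and a library from the 20% of the lysate kept aside (input) were made from each, which gave 6 groups of 2 and 12 libraries. Whole ovaries were used, so somatic cells are part of every library. In such bulk samples fewer cells of a type and less RNA per cell cannot be told apart. Germline content, differentiation stage and, by the genotypes as named, the Dcr-2 transgene all differ between the genotypes at once.

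Libraries held 3131667 to 15039925 counts, and the members were counted at 68 or more reads in each, from 68 reads of AGO1 in a UAS-tkv polysome library to 10944 reads of Dcr-2 in a bam RNAi input library. The genes named by the labels were read in input as a check, in CPM, the reads of a gene scaled to an effective library total by edgeR's TMM factors. ais was at 8.50 and 11.2 CPM in aramis RNAi, 28.7 and 20.7 CPM in bam RNAi and 34.2 and 29.5 CPM in UAS-tkv, and fell in aramis RNAi against UAS-tkv (log2 -1.69, adjusted p = 0.0163, edgeR quasi-likelihood test with Benjamini-Hochberg adjustment) but was not called against bam RNAi (-1.33, adjusted p = 0.0909). bam was at 0.59 and 0.70 CPM in aramis RNAi, 3.55 and 2.48 CPM in bam RNAi and 8.21 and 8.23 CPM in UAS-tkv, so that it was lowest in aramis RNAi (-3.65 against UAS-tkv, adjusted p = 0.0432) and not called in the line with the hairpin against it (-1.44 against UAS-tkv, adjusted p = 1). tkv fell in aramis RNAi against UAS-tkv (-1.28, adjusted p = 0.0174), and was not called in bam RNAi against UAS-tkv (-0.62, adjusted p = 0.909). With polysome and input libraries matched by number, the first bam RNAi replicate stood apart in translational efficiency. This is the log2 ratio of polysome to input level in transcripts scaled by length and library total (TPM). Its median over 9541 genes was -1.23 in that replicate, 0.32 in the other bam RNAi replicate, and -0.54 to 0.24 in the remaining 4 lysates. In bam RNAi the deviations of same-numbered polysome and input libraries correlated at -0.003, which gives no sign that the numbers match lysates there. Germline markers and markers of other cell types also differed between genotypes, and their levels are given beside the results they move with. Nothing in the labels says that replicate lysates came from separate crosses or days, and the p-values below reflect no more than their spread.

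Compared per unit of length, as TPM, AGO2 and Dcr-2 were the most abundant member mRNAs of every input group, and Dcr-1 the least abundant. In aramis RNAi input AGO2 was at 116 and 101 TPM, Dcr-2 at 45.5 and 50.4, loqs at 32.3 and 38.2, r2d2 at 33.2 and 32.6, AGO1 at 18.4 and 20.2 and Dcr-1 at 6.15 and 6.20. In bam RNAi input Dcr-2 was at 253 and 73.5 TPM, AGO2 at 199 and 92.0, r2d2 at 55.8 and 37.8, AGO1 at 52.8 and 21.2, loqs at 33.8 and 29.3 and Dcr-1 at 16.9 and 5.42. In UAS-tkv input AGO2 was at 109 and 141 TPM, Dcr-2 at 106 and 119, r2d2 at 44.6 and 43.1, AGO1 at 24.8 and 24.5, loqs at 17.4 and 24.9 and Dcr-1 at 11.4 and 11.9. Neighbours whose replicates overlapped, and whose order is therefore not fixed, were loqs and r2d2 in aramis RNAi, AGO2 with Dcr-2 and r2d2 with AGO1 and AGO1 with loqs in bam RNAi, and AGO2 with Dcr-2 and AGO1 with loqs in UAS-tkv. The microRNA Dicer was thus the scarcer of the Dicers and the microRNA Argonaute the scarcer of AGO1 and AGO2 in all 6 input libraries.

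In polysome libraries the order was different, at its lower end because AGO1 was low there. In aramis RNAi polysomes AGO1 was at 13.0 and 7.10 TPM beside Dcr-1 at 8.80 and 5.67, and in bam RNAi polysomes AGO1 was at 5.25 and 7.89 beside Dcr-1 at 7.01 and 7.91. In UAS-tkv polysomes AGO1 was at 4.2 and 1.95 TPM and Dcr-1 at 7.88 and 8.89. AGO1 was therefore the lowest of the 6 in both UAS-tkv polysome libraries and overlapped Dcr-1 in the polysomes of both RNAi lines. Higher up, r2d2 at 59.7 and 54.6 TPM lay above Dcr-2 at 49.6 and 32.3 TPM in aramis RNAi polysomes, the reverse of input.

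**Figure D1:**
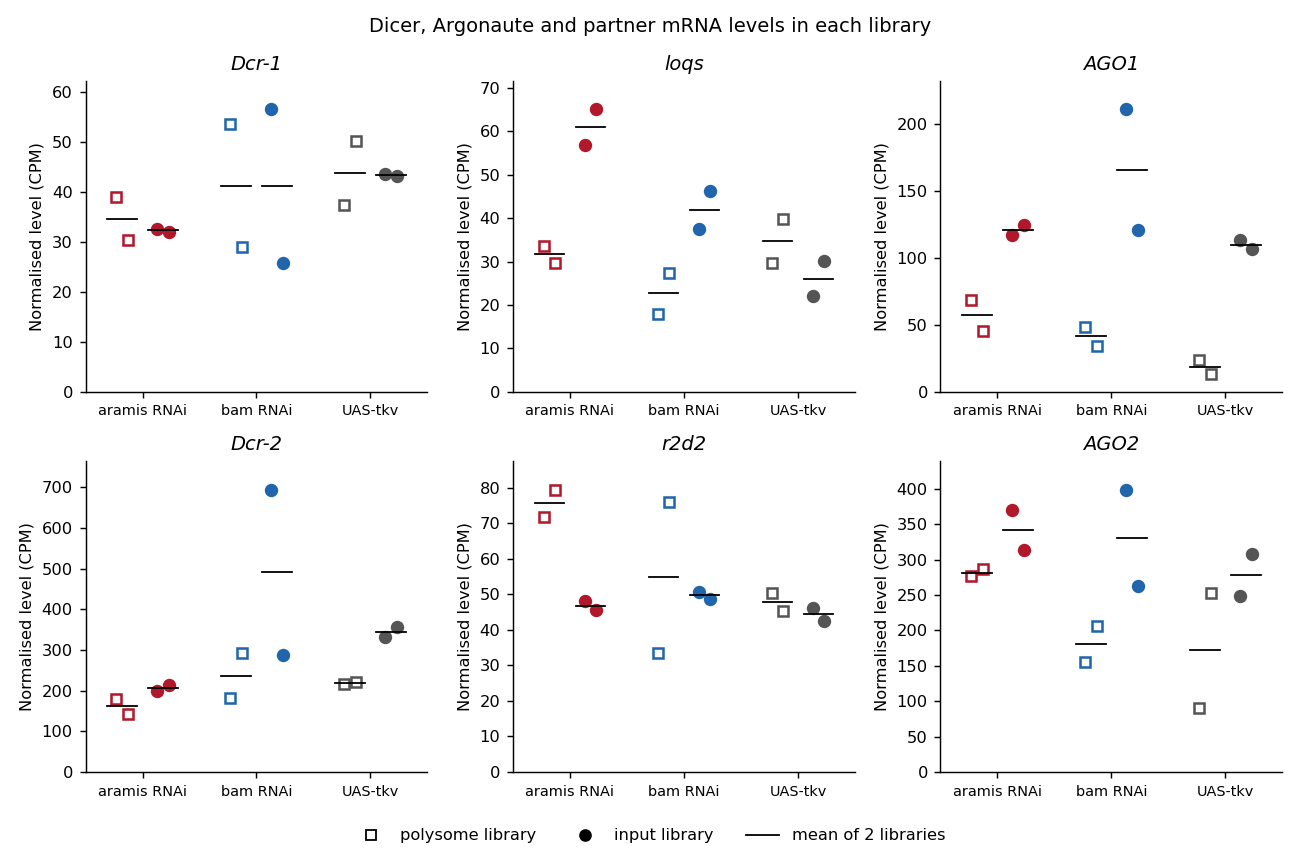
Normalised level in CPM (vertical axes from 0, one scale per gene) of the 6 member mRNAs in the 12 libraries, by genotype, with open squares for polysome and filled circles for input libraries and a bar at the mean of 2. The polysome squares of AGO1 lie below its input circles in all 3 genotypes, the input circles of loqs are highest in aramis RNAi, and the 2 bam RNAi input circles of Dcr-2 (694 and 287 CPM) lie far apart.

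Among the genes of the microRNA branch, the mRNA of loqs was higher in aramis RNAi input. It was at 56.9 and 65.1 CPM in aramis RNAi, at 37.4 and 46.2 CPM in bam RNAi and at 22 and 30.0 CPM in UAS-tkv input. The groups did not overlap, with aramis RNAi at the top and UAS-tkv at the bottom. The difference between aramis RNAi and UAS-tkv was log2 1.23 ± 0.33 (SE; 2.35-fold, 95% interval in log2 0.52 to 1.95), with an adjusted p of 0.0233 in edgeR's quasi-likelihood test over all 9745 genes. It was 1 of the 6 members called in that comparison, where 18.9% of all genes were called and 10.1% were called higher, so a count of 1 in 6 is close to the share among all genes. Leaving out any 1 of the 4 libraries ended the call, at adjusted p of 0.262 without UAS-tkv replicate 1, 0.0618 without UAS-tkv replicate 2, 0.102 without aramis RNAi replicate 1 and 0.15 without aramis RNAi replicate 2, although the log2 difference stayed between 0.93 and 1.42.

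The difference in loqs between bam RNAi and UAS-tkv input was 0.69 ± 0.32 (adjusted p = 0.883), and between aramis RNAi and bam RNAi input 0.54 ± 0.32 (adjusted p = 0.347), neither of them called. When the Dcr-2-carrying lines were pooled against UAS-tkv, loqs differed by 0.96 ± 0.29 with an adjusted p of 0.0743 in edgeR. Without both libraries of the first bam RNAi replicate, a setting added after the values had been seen, this became 1.03. AGO1 was not called in the pooled comparison (0.37 ± 0.32, adjusted p = 0.561, edgeR), yet all 4 hairpin-line input libraries lay above both UAS-tkv libraries. The same order of libraries held in loqs. The higher level was not seen in polysomes, where loqs was at 33.6 and 29.7 CPM in aramis RNAi, 17.9 and 27.5 CPM in bam RNAi and 29.6 and 39.8 CPM in UAS-tkv, a difference of -0.13 ± 0.32 between aramis RNAi and UAS-tkv. An antisense gene, asRNA:CR44599, shares 420 nt of the exons of loqs (18.3%) on the opposite strand, and was counted at 0 to 8 reads per library, against 78 to 590 for loqs.

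Dcr-1, the nuclease of this branch, was not called in any of the 14 comparisons. It was at 32.7 and 31.9 CPM in aramis RNAi, 56.6 and 25.8 CPM in bam RNAi and 43.5 and 43.3 CPM in UAS-tkv input. Both aramis RNAi libraries lay below both UAS-tkv libraries, while the bam RNAi replicates lay on either side of all others. The difference between aramis RNAi and UAS-tkv was -0.42 ± 0.41 with a 95% interval of -1.31 to 0.46, which leaves room for a change of more than 2-fold down. AGO1, the effector Argonaute, was nearly level in these libraries, at 117 and 125 CPM in aramis RNAi and 113 and 107 CPM in UAS-tkv input, with bam RNAi input at 211 and 121 CPM. Its difference was 0.14 ± 0.36 (aramis RNAi against UAS-tkv) and 0.60 ± 0.36 (bam RNAi against UAS-tkv), neither called.

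The input libraries of aramis RNAi that held more loqs also held less germline and more blood cell and muscle RNA. The 6 germline markers measured (nos, zpg, tud, ovo, otu and Sxl) summed to 448 to 478 CPM in aramis RNAi, 862 to 1315 CPM in bam RNAi and 844 to 1321 CPM in UAS-tkv input. Of the 6, 4 were called lower in aramis RNAi against UAS-tkv and 1 lay above 0, in a log2 range of -4.17 to 0.35. The 8 hemocyte markers summed to 4980 to 5337 CPM in aramis RNAi, 1619 to 1748 CPM in bam RNAi and 641 to 1258 CPM in UAS-tkv input, with 8 of 8 called higher in aramis RNAi against UAS-tkv. The 8 muscle markers measured summed to 37960 to 39871 CPM in aramis RNAi, 12710 to 21925 CPM in bam RNAi and 6119 to 13772 CPM in UAS-tkv input, with 5 of 8 called higher. The 8 eggshell markers, made by late follicle cells, summed to 72.4 to 100.4 CPM in aramis RNAi, 333 to 3091 CPM in bam RNAi and 4522 to 9206 CPM in UAS-tkv input, with 8 of 8 called lower. The 5 follicle cell markers, of which slbo was at 0 in 5 libraries, summed to 991 to 1004 CPM in aramis RNAi, 738 to 1015 CPM in bam RNAi and 551 to 595 CPM in UAS-tkv input, with 1 of 4 tested called higher and 1 lower in aramis RNAi against UAS-tkv. The sums of fat body markers overlapped, at 2158 to 2787 CPM in aramis RNAi and 2494 to 4843 CPM in UAS-tkv input. So did those of midgut markers, at 32.6 to 146 CPM in aramis RNAi and 2.60 to 126 CPM in UAS-tkv input. By gene, 1 of 5 fat body markers tested and 1 of 4 midgut markers were called higher in aramis RNAi against UAS-tkv, and 0 lower. The 6 escort and cap cell markers summed to 1106 to 1215 CPM in aramis RNAi, 707 to 826 CPM in bam RNAi and 363 to 526 CPM in UAS-tkv input. These ranges did not overlap, and 1 of 6 markers was called higher in aramis RNAi against UAS-tkv. No germline marker was at 0 in any library. The part of cell composition in the loqs difference was not tested.

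AGO1 was called in 4 of the 14 comparisons, more than any other member, and each of the 4 involved polysome libraries. These calls are not independent. All but that for bam RNAi polysome over input use the 2 UAS-tkv polysome libraries, where AGO1 had 297 and 68 reads. The comparison of both RNAi lines also holds the aramis RNAi polysome libraries. The polysome level of AGO1 was 68.8 and 45.6 CPM in aramis RNAi, 48.2 and 34.5 CPM in bam RNAi and 24.0 and 13.2 CPM in UAS-tkv. Both libraries of each RNAi line lay above both UAS-tkv libraries, while aramis RNAi and bam RNAi overlapped. AGO1 rose by 1.61 ± 0.38 in aramis RNAi against UAS-tkv polysomes (3.06-fold, adjusted p = 0.0085, edgeR), the only member called of 6 in a comparison where 30.8% of all genes were called and 17.2% were called higher. It also rose when both RNAi lines were set against UAS-tkv (1.37 ± 0.34, adjusted p = 0.0208, edgeR), again 1 of 6 beside 16.5% of all genes called and 9.64% called higher. In bam RNAi against UAS-tkv the difference was 1.13 ± 0.37 and was not called (adjusted p = 0.225), and in aramis RNAi against bam RNAi it was 0.48 ± 0.37 (adjusted p = 0.382). The call for aramis RNAi against UAS-tkv was lost without the first aramis RNAi polysome replicate (1.22, adjusted p = 0.101). That for both RNAi lines was lost without the same library (1.18, adjusted p = 0.0773) or without UAS-tkv polysome replicate 2 (1.02, adjusted p = 0.109).

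Cell type markers moved in the polysome libraries too. Hemocyte markers summed to 3758 to 4776 CPM in aramis RNAi, 1545 to 1578 CPM in bam RNAi and 654 to 958 CPM in UAS-tkv polysomes, and escort and cap cell markers, of which en was at 0 in 3 libraries and Lmx1a in 2, to 539 to 840 CPM in aramis RNAi, 212 to 339 CPM in bam RNAi and 96.1 to 131 CPM in UAS-tkv polysomes. Of these lists 8 of 8 and 1 of 6 genes were called higher in aramis RNAi against UAS-tkv. Muscle markers summed to 32193 to 34206 CPM in aramis RNAi, 8848 to 16753 CPM in bam RNAi and 5064 to 9193 CPM in UAS-tkv polysomes, with 7 of 8 called higher in aramis RNAi against UAS-tkv. Eggshell markers summed to 144 to 415 CPM in aramis RNAi, 1119 to 4451 CPM in bam RNAi and 8418 to 19288 CPM in UAS-tkv polysomes, with 8 of 8 called lower. Germline markers summed to 259 to 376 CPM in aramis RNAi, 320 to 641 CPM in bam RNAi and 343 to 602 CPM in UAS-tkv polysomes. Of the 6, 4 were called lower in aramis RNAi against UAS-tkv and 2 lay above 0, in a log2 range of -2.43 to 1.25. Of 4 follicle cell markers tested 1 was called higher. The part of these cell types in the AGO1 difference was not tested. Polysome over input level of genes with more than 5000 nt of exons, AGO1 among them, also differed between genotypes. Its median in log2 was -0.38 in aramis RNAi, -0.995 in bam RNAi and -1.22 in UAS-tkv. The part of this shift in the AGO1 difference was not tested either.

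Within each genotype the polysome level of AGO1 was below its input level. Polysome RNA was extracted with acid phenol and input RNA with TRIzol, and this difference cannot be told apart from the fraction. In aramis RNAi it was 68.8 and 45.6 CPM in polysomes and 117 and 125 CPM in input, and the fitted difference of -1.07 ± 0.37 had a p of 0.0132 but was not called over all genes (adjusted p = 0.745, edgeR). In bam RNAi it was 48.2 and 34.5 CPM in polysomes and 211 and 121 CPM in input, a difference of -2.01 ± 0.38 (adjusted p = 0.0478, edgeR). In UAS-tkv it was 24.0 and 13.2 CPM in polysomes and 113 and 107 CPM in input, a difference of -2.55 ± 0.39 (adjusted p = 0.0048, edgeR), so that the polysome level was 5.86-fold below input. Polysome and input libraries did not overlap in any genotype. The background differed widely between these comparisons, with 0.0103% of all genes called in aramis RNAi, 0.482% in bam RNAi and 8.11% in UAS-tkv, of which 6.14% were lower in polysomes. AGO1 was the only member called in bam RNAi and UAS-tkv, and no member was called in aramis RNAi, where 2 of 6 had an unadjusted p under 0.05 and DESeq2 called none but gave no adjusted p for 4 of the 6.

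The call in UAS-tkv held without each of its 4 libraries (adjusted p 0.0206 to 0.0383). The call in bam RNAi did not, since it ended without bam RNAi input replicate 1 (-1.56, adjusted p = 0.479) or without bam RNAi polysome replicate 1 (-2.27, adjusted p = 0.272), and without both libraries of that replicate the difference was -1.81 (adjusted p = 0.469).

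AGO1 has the longest exons of the 6 members (8278 nt), and long genes as a class were lower in polysomes than in input. Of the 1268 tested genes with more than 5000 nt of exons, the median difference of polysome over input was -0.38 in aramis RNAi, -0.995 in bam RNAi and -1.22 in UAS-tkv, and 28.9% of them were called lower in UAS-tkv and 2.68% in bam RNAi. The 4772 genes under 2000 nt had medians of 0.15 in aramis RNAi, 0.25 in bam RNAi and 0.47 in UAS-tkv. Dcr-1, with 6913 nt, was at 38.9 and 30.4 CPM in polysomes and 32.7 and 31.9 CPM in input of aramis RNAi, at 53.7 and 28.9 CPM in polysomes and 56.6 and 25.8 CPM in input of bam RNAi, and at 37.5 and 50.3 CPM in polysomes and 43.5 and 43.3 CPM in input of UAS-tkv. Its fitted differences of 0.11 in aramis RNAi, -0.01 in bam RNAi and 0.01 in UAS-tkv were all within 1 SE of 0. Dcr-2, with 5684 nt, had fitted differences of -0.35 in aramis RNAi, -1.05 in bam RNAi and -0.65 in UAS-tkv, none of them called. What part length has in the AGO1 value was not tested.

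**Figure D2:**
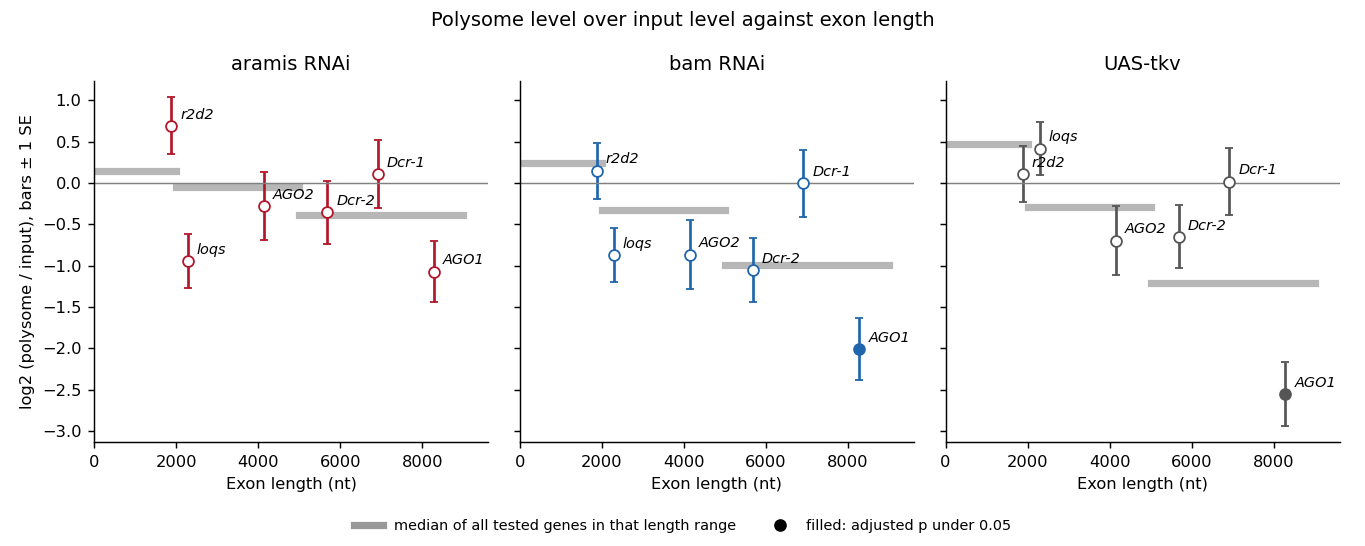
Fitted log2 ratio of polysome over input level (vertical axis, bars ± 1 SE) of the 6 members against exon length in nt, one panel per genotype, with grey lines at the median of all tested genes under 2000 nt, from 2000 to 5000 nt and over 5000 nt, and filled symbols where the adjusted p was under 0.05. AGO1 is the lowest point of every panel, at -1.07 in aramis RNAi, -2.01 in bam RNAi and -2.55 in UAS-tkv. Of the other members over 5000 nt, Dcr-1 lies between -0.01 and 0.11. Dcr-2 lies at -0.35 in aramis RNAi, -1.05 in bam RNAi and -0.65 in UAS-tkv.

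In the small interfering RNA branch, Dcr-2 was the gene for which a rise could be looked for, since the hairpin lines carry it as a transgene. Such a rise was not detected. Dcr-2 was at 199 and 213 CPM in aramis RNAi, 694 and 287 CPM in bam RNAi and 332 and 356 CPM in UAS-tkv input. Both aramis RNAi libraries, with the transgene, lay below both UAS-tkv libraries, for which it is not named, and 1 of the bam RNAi libraries lay above and 1 below the UAS-tkv pair. For both RNAi lines against UAS-tkv the difference was -0.11 ± 0.33 (adjusted p = 0.891, edgeR). Its 95% interval of -0.83 to 0.60 reaches a rise of 1.52-fold, in the mean of lines that lay on opposite sides of UAS-tkv. For bam RNAi alone the 95% interval of -0.32 to 1.35 reaches a rise of 2.54-fold, and for aramis RNAi alone that of -1.57 to 0.10 reaches 1.07-fold. No member was called in this comparison, in which 6.45% of all genes were, 1 member (loqs) had an unadjusted p under 0.05 and DESeq2 called 1 member, loqs. Counts per gene do not separate transgene reads from reads of the chromosomal gene. The levels are of whole ovaries, so these intervals do not bound a rise within germ cells, where nosGAL4 drives the transgene.

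By single genotype, Dcr-2 differed by -0.74 ± 0.38 in aramis RNAi against UAS-tkv input (adjusted p = 0.210), by 0.51 ± 0.38 in bam RNAi against UAS-tkv input (adjusted p = 1) and by -1.25 ± 0.39 in aramis RNAi against bam RNAi input (unadjusted p = 0.0073, adjusted p = 0.0906, edgeR). In the last of these 3.39% of all genes and 0 of the 6 members were called by edgeR, 1 member had an unadjusted p under 0.05, and DESeq2 called 1, Dcr-2 (adjusted p = 0.0135). The value rests on the first bam RNAi input library, since it was -0.53 without that library and -1.75 without the other. Between bam RNAi and UAS-tkv the difference turned to -0.28 without the first bam RNAi input library. The spread of Dcr-2 between the bam RNAi input replicates, 1.27 in log2, was wider than that of 97.1% of tested genes, and Dcr-1 in the same pair was at the 94.8th percentile with 1.11. In bam RNAi against UAS-tkv input 0.236% of all genes were called and 0 of 6 members, with 0 members at an unadjusted p under 0.05 and 0 in DESeq2.

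When both libraries of the first bam RNAi replicate were left out of the fit, Dcr-2 in aramis RNAi against UAS-tkv input kept the same difference of -0.74. The left-out libraries are not part of that comparison, so leaving them out does not test its value. This setting was added after the values had been seen. Without 1 of the 4 libraries compared, the difference ran from -0.88 to -0.69. With only the groups compared, Dcr-2 was called lower in aramis RNAi against UAS-tkv input (adjusted p = 0.0095, edgeR), the only 1 of 6 alternatives to do so. Germline markers moved with Dcr-2 in aramis RNAi input as given above, and in that comparison their median difference was -2.35, against -0.74 for Dcr-2 and a median of -0.04 for all genes. The part of germline content was not tested.

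In polysomes Dcr-2 was at 180 and 142 CPM in aramis RNAi, 181 and 291 CPM in bam RNAi and 216 and 222 CPM in UAS-tkv. The aramis RNAi libraries were below both UAS-tkv libraries, and bam RNAi spanned them. The differences from UAS-tkv were -0.44 ± 0.38 in aramis RNAi and 0.11 ± 0.38 in bam RNAi, neither called. In all 3 genotypes the fitted polysome level of Dcr-2 was below the input level, by -0.35 ± 0.38 in aramis RNAi, -1.05 ± 0.38 in bam RNAi and -0.65 ± 0.38 in UAS-tkv, and none of these was called. Without both libraries of the first bam RNAi replicate the bam RNAi value was 0.02. The UAS-tkv value, of which those libraries are no part, stayed at -0.65. Without 1 of its own 4 libraries it ran from -0.75 to -0.61.

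r2d2, the partner that stabilises Dcr-2 and senses the ends of the duplex, was the steadiest member in input. It was at 48.0 and 45.6 CPM in aramis RNAi, 50.7 and 48.8 CPM in bam RNAi and 46.2 and 42.6 CPM in UAS-tkv, a spread of all 6 libraries from 42.6 to 50.7 CPM. In polysomes it was at 71.8 and 79.6 CPM in aramis RNAi, 33.5 and 76.1 CPM in bam RNAi and 50.5 and 45.3 CPM in UAS-tkv. The aramis RNAi polysome libraries were above both UAS-tkv libraries and their own inputs. The difference in polysomes between aramis RNAi and UAS-tkv was 0.66 ± 0.34 (adjusted p = 0.160, edgeR). It had the same value when both libraries of the first bam RNAi replicate, which are not part of this comparison, were left out. Between aramis RNAi and bam RNAi polysomes r2d2 differed by 0.45 ± 0.34 (adjusted p = 0.375), but by 1.13 without the second bam RNAi polysome library (adjusted p = 0.0108) and by -0.01 without the first. Exons of r2d2 share 431 nt (22.9%) with Cdc14 on the other strand, which was counted at 18 to 686 reads per library, and Cdc14 differed by 1.63 ± 0.64 in aramis RNAi against UAS-tkv polysomes (adjusted p = 0.0711). The strand setting of the counting is not given in the sources used here, so the share of Cdc14 in the r2d2 counts is not known.

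AGO2, the slicing Argonaute, was not called in any of the 14 comparisons. It was at 370 and 313 CPM in aramis RNAi, 399 and 262 CPM in bam RNAi and 249 and 307 CPM in UAS-tkv input. In polysomes it was at 276 and 286 CPM in aramis RNAi, 155 and 207 CPM in bam RNAi and 90.8 and 253 CPM in UAS-tkv. The UAS-tkv polysome replicates were 2.78-fold apart, the widest CPM ratio of any member in any group, and aramis RNAi lay above both. The difference between aramis RNAi and UAS-tkv polysomes was 0.71 ± 0.41 (adjusted p = 0.204, edgeR), and it was 1.63 without UAS-tkv polysome replicate 2 (adjusted p = 0.0135) and 0.12 without UAS-tkv polysome replicate 1. In aramis RNAi against bam RNAi polysomes, where 12.7% of all genes were called, 0 of the 6 members were called by edgeR or DESeq2 and 0 had an unadjusted p under 0.05. In bam RNAi against UAS-tkv polysomes, where 0.626% of all genes were called, edgeR called 0 of 6, 1 had an unadjusted p under 0.05 and DESeq2 called 1, AGO1 (adjusted p = 0.0486).

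**Figure D3:**
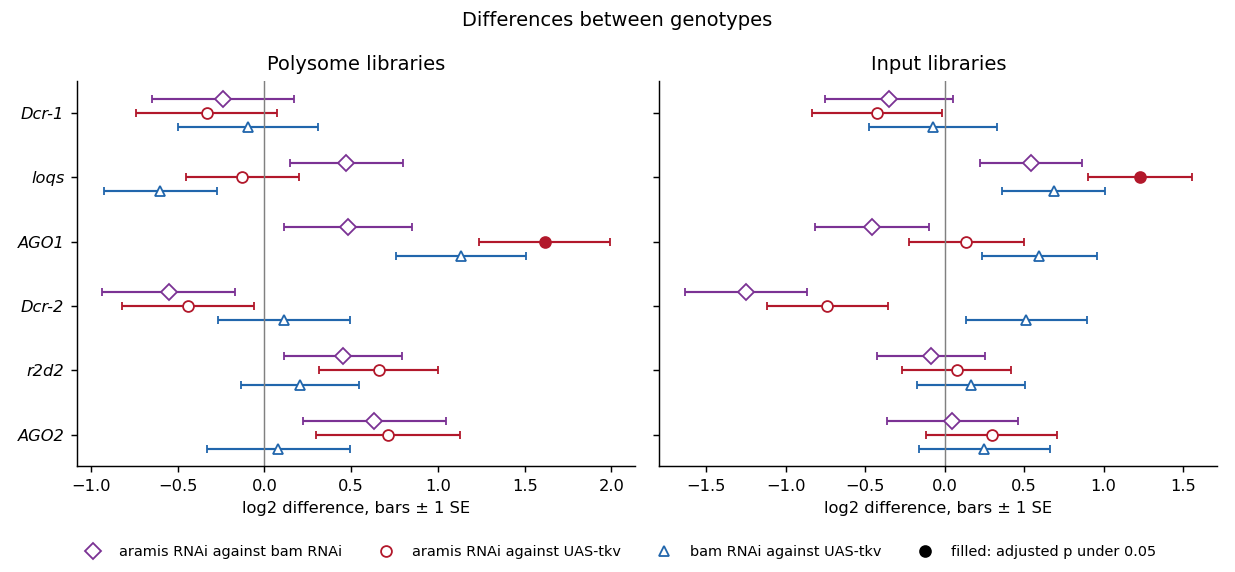
Log2 difference (horizontal axes, bars ± 1 SE) of the 6 members between genotypes in polysome and input libraries, with diamonds for aramis RNAi against bam RNAi, circles for aramis RNAi against UAS-tkv and triangles for bam RNAi against UAS-tkv, filled where the adjusted p was under 0.05. The filled symbols are AGO1 in polysomes (1.61) and loqs in input (1.23), both for aramis RNAi against UAS-tkv, and the input symbols of Dcr-2 lie on both sides of 0.

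Over the 6 members as a group, the median difference in aramis RNAi against UAS-tkv was 0.11 in input, beside -0.04 over all genes, and 0.27 in polysomes, beside 0.02 over all genes. In bam RNAi against UAS-tkv it was 0.38 in input, beside 0.04 over all genes, and 0.10 in polysomes, beside 0.01 over all genes. AGO1, AGO2 and r2d2 were above 0 and Dcr-1 below 0 in all 4 of these comparisons, which share the UAS-tkv libraries of each fraction, but of these genes only AGO1 in aramis RNAi polysomes passed the test.

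The change in polysome association between genotypes was tested as the interaction of genotype and fraction, which asks whether the polysome level changed beyond the input level (translational efficiency, TE). No member was called in any of the 3 contrasts by edgeR or by DESeq2. In aramis RNAi against UAS-tkv, where 0.0103% of all genes were called, 2 members had an unadjusted p under 0.05, and they pointed in opposite directions. AGO1 had a TE difference of 1.48 ± 0.52 (adjusted p = 0.652, edgeR), and loqs one of -1.36 ± 0.46 (adjusted p = 0.652, edgeR). For genes with more than 5000 nt of exons, like AGO1, the median polysome over input was -0.38 in aramis RNAi and -1.22 in UAS-tkv. The part of this shift in the AGO1 value was not tested. In bam RNAi against UAS-tkv, with 0.0103% of all genes called, 1 member had an unadjusted p under 0.05, loqs with -1.29 ± 0.46 (adjusted p = 1.00, edgeR), while AGO1 was at 0.54 ± 0.52. In aramis RNAi against bam RNAi, with 0% of all genes called, 0 members had an unadjusted p under 0.05. The first and second of these contrasts share the UAS-tkv libraries.

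As the log2 ratio of TPM with 1 added, the TE of AGO1 in the 2 lysates was -0.47 and -1.39 in aramis RNAi, -3.10 and -1.32 in bam RNAi and -2.31 and -3.11 in UAS-tkv. Every value was below 0, and aramis RNAi and UAS-tkv did not overlap. The TE of loqs was -0.48 and -1.14 in aramis RNAi, -2.11 and -0.36 in bam RNAi and 0.10 and -0.22 in UAS-tkv, so that UAS-tkv was above both RNAi lines. The TE of r2d2 was 0.83 and 0.73 in aramis RNAi, -1.73 and 1.00 in bam RNAi and -0.19 and -0.54 in UAS-tkv. Between the bam RNAi lysates the TE of Dcr-2 was -3.09 and 0.39, a gap in the direction of the all-gene medians of those lysates. This gap rests on matching libraries by number, which in bam RNAi the correlation between polysome and input deviations (-0.003) gives no sign of, and with the numbers crossed the SD of the Dcr-2 TE was 0.036 in place of 2.46 and that of AGO2 0.25 in place of 1.81.

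Ratios between partner mRNAs within a library do not depend on the scaling of libraries. The ratio of loqs to Dcr-1 in TPM was 5.25 and 6.15 in aramis RNAi, 2.0 and 5.41 in bam RNAi and 1.53 and 2.1 in UAS-tkv input. It did not overlap between aramis RNAi and UAS-tkv, and bam RNAi overlapped both. In polysomes the same ratio was 2.60 and 2.95 in aramis RNAi, 1.01 and 2.87 in bam RNAi and 2.38 and 2.39 in UAS-tkv. The aramis RNAi libraries were again above both UAS-tkv libraries, by a smaller margin than in input.

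The ratio of r2d2 to Dcr-2 was 0.73 and 0.65 in aramis RNAi, 0.22 and 0.51 in bam RNAi and 0.42 and 0.36 in UAS-tkv input. In polysomes it was 1.2 and 1.69 in aramis RNAi, 0.56 and 0.79 in bam RNAi and 0.71 and 0.62 in UAS-tkv. It was above 1 only in aramis RNAi polysomes, and aramis RNAi did not overlap UAS-tkv in either fraction. The ratio of AGO2 to AGO1 was 8.02 and 12.6 in polysomes and 6.32 and 5.01 in input of aramis RNAi, 6.44 and 12 in polysomes and 3.77 and 4.33 in input of bam RNAi, and 7.57 and 38.2 in polysomes and 4.4 and 5.75 in input of UAS-tkv. AGO2 thus outweighed AGO1 in all 12 libraries, and more so in polysomes than in input of each genotype. The ratio of Dcr-2 to Dcr-1 was 7.40 and 8.13 in aramis RNAi, 14.9 and 13.6 in bam RNAi and 9.29 and 9.99 in UAS-tkv input. It was highest in bam RNAi input and did not overlap between genotypes there, and the Dicers were both higher in the first than in the second bam RNAi input library. In polysomes it was 5.63 and 5.70 in aramis RNAi, 4.11 and 12.3 in bam RNAi and 7.01 and 5.36 in UAS-tkv, and the genotypes overlapped. With 2 lysates per genotype a permutation test of such a ratio cannot reach p under 0.05, and none was run.

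**Figure D4:**
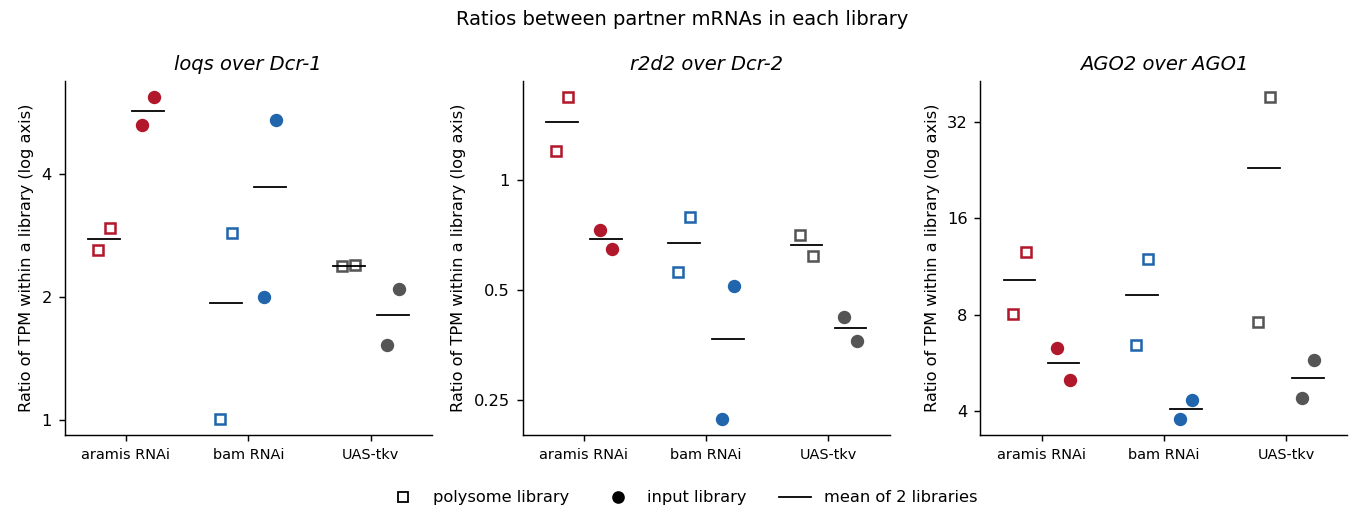
Ratio of TPM between partner mRNAs within each library (vertical log axes), by genotype, with open squares for polysome libraries, filled circles for input libraries and bars at the arithmetic mean of 2. The input ratio of loqs to Dcr-1 is 5.25 and 6.15 in aramis RNAi and 1.53 and 2.1 in UAS-tkv, and the polysome ratio of AGO2 to AGO1 reaches 38.2 in 1 UAS-tkv library.

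The 3 other Argonaute-family genes of the fly, piwi, aub and AGO3, bind PIWI-interacting RNAs that silence transposons in the germline, and they differed from AGO1 and AGO2 in aramis RNAi input. piwi, which also acts in somatic cells of the ovary, was at 138 and 146 CPM in aramis RNAi, 627 and 380 CPM in bam RNAi and 442 and 459 CPM in UAS-tkv input. aub was at 27.1 and 28.4 CPM in aramis RNAi, 234 and 147 CPM in bam RNAi and 218 and 191 CPM in UAS-tkv input. AGO3 was at 25 and 36.5 CPM in aramis RNAi, 254 and 196 CPM in bam RNAi and 179 and 140 CPM in UAS-tkv input. In all 3 genes the aramis RNAi libraries were below every other input library. Against UAS-tkv, these 3 genes had a median difference of -2.38 in aramis RNAi input, beside a median of -2.35 for the 6 germline markers, of which 4 were called lower. The part of germline content was not tested. They fell in aramis RNAi against UAS-tkv by 1.66 (piwi, adjusted p = 0.0121), 2.88 (aub, adjusted p = 0.0013) and 2.38 (AGO3, adjusted p = 0.0045) on the log2 scale in edgeR, and 3 of 3 were also called lower against bam RNAi. AGO1 and AGO2 were at 0.14 and 0.30 in aramis RNAi against UAS-tkv and were not called. The difference between the gene groups was not itself tested. In bam RNAi against UAS-tkv input none of the 5 Argonautes was called by edgeR.

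**Figure D5:**
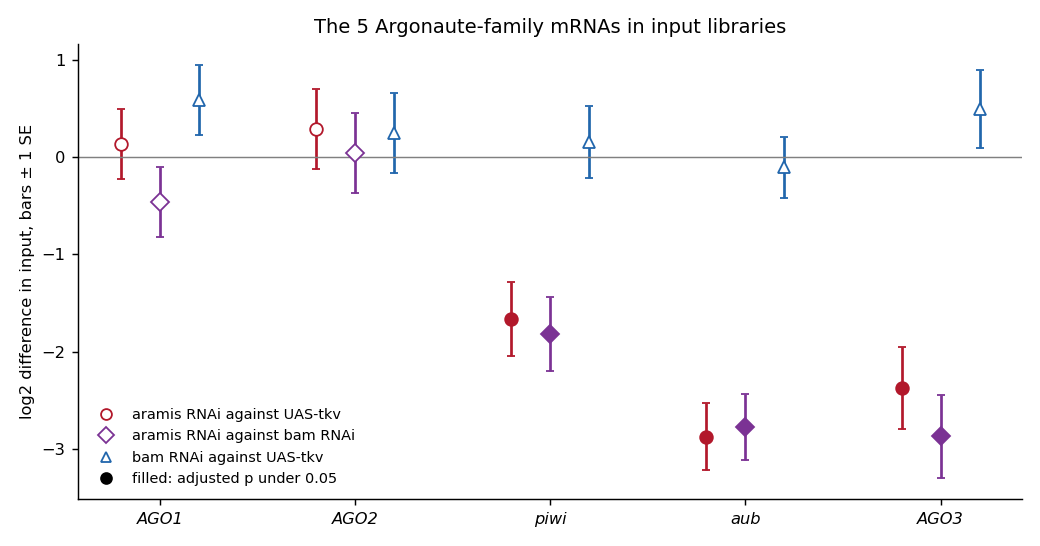
Log2 difference in input libraries (vertical axis, bars ± 1 SE) of the 5 Argonaute-family mRNAs, with circles for aramis RNAi against UAS-tkv, diamonds for aramis RNAi against bam RNAi and triangles for bam RNAi against UAS-tkv, filled where the adjusted p was under 0.05. piwi, aub and AGO3 are at -1.66, -2.88 and -2.38 in aramis RNAi against UAS-tkv, while AGO1 and AGO2 are at 0.14 and 0.30.

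Other genes of these pathways were read from 2 lists. Of 20 genes listed for microRNA processing and for the effector steps downstream of AGO1, 19 were measured. In aramis RNAi against UAS-tkv input 0 were called higher and 2 lower, or 2 of 19 where 18.9% of all genes were called, with a median difference of -0.50 beside -0.04 for all genes. They were me31B, a translational repressor that is abundant in the germline (-2.07, adjusted p = 0.0023), and nbr, an exonuclease that trims microRNAs bound to AGO1 (-0.89, adjusted p = 0.0483). In polysomes of the same genotypes 5 rose and 5 fell, or 10 of 19 where 30.8% of all genes were called, with a median of -0.43 beside 0.02. Among those that rose were DCP2, the decapping enzyme (1.82, adjusted p = 0.0049), Not1, the scaffold of the deadenylase complex (1.34, adjusted p = 0.0174), and PAN3, a deadenylase subunit (1.15, adjusted p = 0.0268). Among those that fell were Cbp20 of the nuclear cap-binding complex (-1.83, adjusted p = 0.0064), me31B (-1.37, adjusted p = 0.0068) and nbr (-1.10, adjusted p = 0.0140), all in edgeR.

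DCP2, Not1 and pAbp, the poly(A)-binding protein, were lower in polysomes than in input, as AGO1 was. In UAS-tkv the differences were -2.56 for DCP2 (adjusted p = 0.0046), -2.39 for Not1 (adjusted p = 0.0055) and -2.25 for pAbp (adjusted p = 0.0116, all edgeR). In all, 5 of the 19 genes were called lower there, where 6.14% of all genes and 28.9% of those with more than 5000 nt of exons were called lower. The part of length in these values was not tested. Cbp20 alone was called higher in UAS-tkv (1.47, adjusted p = 0.0437, edgeR). In bam RNAi, where 0.482% of all genes were called lower, 2 of the 19 were, DCP2 (-2.13, adjusted p = 0.0407) and pAbp (-2.32, adjusted p = 0.0470). In aramis RNAi, where 0.0103% of all genes were called, edgeR called 0 of the 19.

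Of 11 genes listed as cofactors of small interfering RNA and of the effector complex, 11 were measured. In aramis RNAi against UAS-tkv input 1 rose and 1 fell, or 2 of 11 where 18.9% of all genes were called, with a median of -0.68 beside -0.04. The gene that rose was vig, a component of the AGO2 effector complex (1.28, adjusted p = 0.0163), and the gene that fell was blanks, a double-stranded RNA-binding protein known from the testis (-2.53, adjusted p = 0.0035). In polysomes of the same genotypes 2 rose and 2 fell, or 4 of 11 where 30.8% of all genes were called, with a median of -0.67 beside 0.02. Both shares are close to those of all genes. The called genes were vig at 2.32 (adjusted p = 0.0009) and Fmr1, a translational regulator found with AGO2, at 1.30 (adjusted p = 0.0208), and with blanks at -2.04 (adjusted p = 0.0044) and trsn, a subunit of the C3PO nuclease, at -1.71 (adjusted p = 0.0035). The chaperones on the list (Hsc70-4, Hsp83, Hop and Droj2), which load duplexes into AGO2, were not among the called genes of either comparison.

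Across the 12 libraries the members did not move as a unit. Pearson correlations of their log2 CPM over the 12 libraries ran from -0.52 between Dcr-1 and r2d2 to 0.63 between AGO1 and AGO2. Partners were no closer than other pairs, with -0.41 for Dcr-1 and loqs and -0.19 for Dcr-2 and r2d2. Among 7076 genes with a mean of at least 10 CPM, the genes most like AGO1 over the 12 libraries were drn (r = 0.986), FBgn0037636 (r = 0.986) and CHES-1-like (r = 0.986), and those most like AGO2 were Gp150 (0.950), baz (0.945) and bab2 (0.945). Those most like Dcr-2 were FBgn0260010 (0.959), Rcd1 (0.940) and RAF2 (0.937), those most like loqs were mthl4 (0.940), eIF1A (0.903) and CG7083 (0.849), those most like r2d2 were CG42709 (0.916), CG8195 (0.903) and Yip1d1 (0.879), and those most like Dcr-1 were stl (0.859), Mekk1 (0.855) and CG7099 (0.821). The points share genotype, fraction and lysate, so these values describe the libraries and carry no test.

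By position in the dm6 annotation, the members lie apart from each other. Dcr-1 (FBgn0039016) is on chromosome 3R at 22734007 to 22741091, with 6913 nt of exons, and loqs (FBgn0032515) on 2L at 13382652 to 13385671, with 2290 nt and 6 transcripts. AGO1 (FBgn0262739) is on 2R at 13943387 to 13958089 with 8278 nt, and Dcr-2 (FBgn0034246) on 2R at 17574979 to 17581525 with 5684 nt. r2d2 (FBgn0031951) is on 2L at 7800147 to 7802098 with 1879 nt, and AGO2 (FBgn0087035) on 3L at 15554113 to 15561042 with 4144 nt. Besides the overlaps of loqs and r2d2 given above, AGO2 shares 317 nt of exon with CG7739 (7.65%) and AGO1 196 nt with CG33155 (2.37%), both on the opposite strand. Counts were per gene, so the 6 transcripts of loqs, among them those for its Dcr-1 and Dcr-2 isoforms, were not separated.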

How the data were processed

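Ovary polysome and input mRNA was sequenced from 3 genotypes. The deposited files hold raw read counts per gene, which the authors made by aligning reads with HISAT2 (version 2.1.0) to dm6 and counting with featureCounts (version 1.4.6). The strand setting is not given in the sources used here. Libraries held 3131667 to 15039925 counts. Of 17023 gene identifiers, 376 had no name in the annotation used and took 4.13% to 6.46% of counts, and they stayed in the fit.

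All 12 libraries were fitted together as 6 group means in edgeR 4.0.16 (R 4.3.3) after filterByExpr, which removed 7278 genes, with TMM factors and the quasi-likelihood F test. P-values were adjusted by Benjamini-Hochberg over the 9745 genes tested in each of 14 comparisons, and a gene was called at an adjusted p under 0.05. TE contrasts were interactions of genotype and fraction. SE is the log2 difference divided by the square root of F, and 95% intervals use the total degrees of freedom. TPM used the summed exon length of each gene, and per-lysate TE added 1 TPM, with 0.1 TPM as an alternative. Fits were tested on simulated data.

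Alternatives were RLE and upper-quartile factors, no filter, DESeq2 1.42.0, only the groups compared, a block for the replicate number or the lysate, and leaving out each library. Members and lists were chosen with earlier results of these data known. Genes named beside the members were those the labels name, piwi, aub and AGO3, up to 3 called genes per direction, list and comparison with the lowest adjusted p, and the 3 genes most correlated with each member. The lowest member count, 68 reads of AGO1 in a UAS-tkv polysome library, carries the most counting error.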

Additional observations from a re-analysis of the deposited data

How the results depend on the processing

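With 2 lysates per group, 1 library decides several values, and the low counts of AGO1 in UAS-tkv polysomes limit its precision. The number of members called moved as follows. With only the groups compared, input of aramis RNAi against UAS-tkv gave 2 members instead of 1, input of both RNAi lines 1 instead of 0, polysomes of both RNAi lines 0 instead of 1, and bam RNAi polysome over input 0 instead of 1. RLE factors also gave 0 for bam RNAi polysome over input. No filter and DESeq2 each gave 1 instead of 0 in input of aramis RNAi against bam RNAi and in polysomes of bam RNAi against UAS-tkv, and DESeq2 gave 1 instead of 0 in input of both RNAi lines. Leaving out a library, or both libraries of the first bam RNAi replicate, gave 0 to 2 members in input of aramis RNAi against UAS-tkv, 0 to 1 against bam RNAi and 0 to 1 for both RNAi lines, 0 to 2, 0 to 1 and 0 to 2 for the same comparisons in polysomes, 0 to 1 for TE of aramis RNAi against bam RNAi, 1 to 2 in UAS-tkv polysome over input and 0 to 3 in bam RNAi polysome over input. The cause was not tested.

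Direction turned only when libraries were left out, with ranges of -0.18 to 1.31 for AGO2 in polysomes of both RNAi lines, -0.28 to 1.01 for Dcr-2 in input of bam RNAi against UAS-tkv, -0.371 to 1.2 for Dcr-2 TE of aramis RNAi against bam RNAi, -0.0099 to 1.13 for r2d2 in polysomes of aramis RNAi against bam RNAi and -1.55 to 0.019 for Dcr-2 in bam RNAi polysome over input. Signs of uncalled values within 1 SE of 0 also turned, in 26 of 84 member values (-0.40 to 0.42).

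The loqs call in input and the AGO1 call in polysomes of aramis RNAi against UAS-tkv held in 6 of 6 alternatives other than left-out libraries (adjusted p 0.0038 to 0.0330 and 6.3e-05 to 0.0384). Same-numbered libraries of different genotypes correlated at -0.136 to 0.188 in their deviations, so the numbers were not taken to pair samples, while polysome and input of 1 lysate correlated at 0.392 in aramis RNAi, -0.003 in bam RNAi and 0.540 in UAS-tkv. A replicate block by number or lysate changed no member count. With the number block, loqs was at 1.24 (adjusted p = 0.0153) and AGO1 in polysomes at 1.63 (adjusted p = 0.0033). Crossed numbers gave 0 members and 1628 genes in polysomes of aramis RNAi against bam RNAi.

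Over all genes, the number called, on which the shares beside the member counts rest, depended strongly on single libraries. It was 253 (without UAS-tkv replicate 1) to 2559 (without the first bam RNAi replicate) in input of aramis RNAi against UAS-tkv, and 1097 (without aramis RNAi replicate 1) to 3881 (without the first bam RNAi replicate) beside 2998 in polysomes. It was 1 (without aramis RNAi replicate 1) to 261 in input of aramis RNAi against bam RNAi, and 11 (without aramis RNAi replicate 1) to 3002 (without bam RNAi replicate 2) in polysomes. For both RNAi lines it was 44 to 1238 in input and 606 to 2840 in polysomes, for bam RNAi against UAS-tkv 0 to 24 in input and 14 to 238 in polysomes, and for polysome over input 0 to 4 in aramis RNAi, 0 to 2315 in bam RNAi and 119 to 1902 in UAS-tkv. TE of aramis RNAi against bam RNAi reached 610 without bam RNAi polysome replicate 2. Other settings that moved it by more than 1.5 times follow, after the value of edgeR with TMM. Input of aramis RNAi against UAS-tkv had 1840 genes, and 4116 with only the groups compared. Input of aramis RNAi against bam RNAi had 330, and 1151 without filter, 1231 in DESeq2 and 1888 with only the groups compared. Input of bam RNAi against UAS-tkv had 23, and 263 without filter, 111 in DESeq2 and 37 with the block. Input of both RNAi lines had 629, and 1339 without filter, 1360 in DESeq2 and 1769 with only the groups compared. Polysomes of aramis RNAi against bam RNAi had 1237, and 2170 without filter, 2350 in DESeq2 and 70 with only the groups compared. Polysomes of bam RNAi against UAS-tkv had 61, and 706 without filter, 521 in DESeq2 and 146 with only the groups compared. Polysomes of both RNAi lines had 1606, and 457 with only the groups compared. Polysome over input had 790 in UAS-tkv, and 1654 without filter, 1615 in DESeq2 and 452 with only the groups compared; it had 1 in aramis RNAi, and 69 without filter and 50 in DESeq2; it had 47 in bam RNAi, and 28 with RLE factors, 1133 without filter, 1085 in DESeq2 and 0 with only the groups compared. TE had 1 in aramis RNAi against UAS-tkv, and 39 without filter and 19 in DESeq2, 0 in aramis RNAi against bam RNAi, and 44 without filter, and 1 in bam RNAi against UAS-tkv, and 18 without filter and 3 in DESeq2.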
